A study of Mus musculus with 6 samples.

Results

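The nuclear genome encodes all of succinate dehydrogenase and most subunits of the later complexes of oxidative phosphorylation. The genes described here are those whose symbols in the deposited heart table are of the forms used for complex II (Sdha to Sdhd), complex III (Uqcr genes and Cyc1), cytochrome c (Cycs), complex IV (Cox4 to Cox8 genes) and complex V (Atp5 genes), without Atp5s, Atp5sl and hyphenated names. The rule, which uses names and no measured values, found 47 of 49585 gene rows: 4 for complex II, 9 for complex III, 1 for cytochrome c, 18 for complex IV and 15 for complex V. Among them 43 had enough reads to be tested.

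Ribosome-protected fragments, the pieces of mRNA that a translating ribosome shields from nuclease, were sequenced from whole hearts of male mice, 8 or 9 weeks old. The GC group (3 libraries) was the ground control at 1 g, described as C57BL/6 J mice held under conditions matched to those of the flown mice. The PG group (3 libraries) was flown and kept at 0.167 g, lunar gravity, in a habitat cage spun at 31 rpm on a 15 cm radius; the strain is stated for the GC group alone. PG and GC therefore differ in flight as well as gravity, which cannot be told apart here. Neither animal nor mission is given for a library, so the spread between libraries may be partly technical. Mitochondria were spun out before digestion. Nuclear-encoded subunits are made by cytosolic ribosomes, some of them at the mitochondrial surface, and how many of those were removed was not measured. No matched RNA-seq was used, so a difference in fragments can be one of mRNA amount or of translation.

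Complex II oxidises succinate and passes its electrons to ubiquinone, complex III passes them from ubiquinone to cytochrome c, and complex IV passes them to oxygen. Complexes III and IV pump protons across the inner mitochondrial membrane, and complex V, the ATP synthase, uses the gradient to make ATP. The beating heart draws most of its ATP from this chain, and its muscle cells use their own isoforms of complex IV subunits 6a, 7a and 8, encoded by Cox6a2, Cox7a1 and Cox8b in place of the ubiquitous Cox6a1, Cox7a2 and Cox8a.

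Exon reads ran from 2212473 (GC replicate 1) to 3196070 (GC replicate 3) per library, and Lars2 and Tmem38b together took 45.5% to 52.5% of them. PG replicate 3 stood apart: its chi-square per degree of freedom against the other PG libraries was 27.9 and 16.8, where the other within-group pairs lay between 4.28 and 5.49. Results are therefore also given without it. Levels are given as CPM, read counts scaled to the size of the library with TMM factors, and a log2 fold change is PG over GC, with its standard error. Ventricular cardiomyocyte markers summed to 35247 to 49445 CPM. Fast skeletal muscle markers reached at most 32 CPM, brown fat markers 16.3 CPM with Ucp1 at 0 reads, and 5 of the 6 testis markers had 0 reads.

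Sequences upstream of the members' start sites were taken from RefSeq (GRCm38.p6), where 36 of the 47 symbols matched, with 39 start sites. The stretches printed here belong to the pair Cox7a1 and Cox7a2, to Cox8b and Cox6a1 as a heart and a ubiquitous isoform that hold a motif, and to Atp5g1, which had the smallest p of all members. Each reads 5′ to 3′ and holds the bases that lie both within 250 bases before the RefSeq start and before the deposited gene row. Capitals mark motif matches.
Cox7a1, chr7:30183921-30184143, plus strand: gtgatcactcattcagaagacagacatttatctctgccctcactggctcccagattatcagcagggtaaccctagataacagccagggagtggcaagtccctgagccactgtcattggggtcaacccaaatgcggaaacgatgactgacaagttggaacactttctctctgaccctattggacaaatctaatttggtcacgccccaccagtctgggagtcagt
Cox7a2, chr9:79759879-79760103, minus strand: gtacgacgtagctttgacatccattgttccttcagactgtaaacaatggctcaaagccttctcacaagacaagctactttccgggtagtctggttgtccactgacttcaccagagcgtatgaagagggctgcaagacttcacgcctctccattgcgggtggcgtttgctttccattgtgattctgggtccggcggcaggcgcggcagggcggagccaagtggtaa
Cox8b, chr7:140900447-140900696, minus strand: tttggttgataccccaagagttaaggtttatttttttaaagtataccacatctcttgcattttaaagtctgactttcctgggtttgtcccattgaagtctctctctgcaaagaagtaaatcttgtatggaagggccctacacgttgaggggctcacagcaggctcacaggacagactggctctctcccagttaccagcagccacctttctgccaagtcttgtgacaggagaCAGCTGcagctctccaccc
Cox6a1, chr5:115348982-115349208, minus strand: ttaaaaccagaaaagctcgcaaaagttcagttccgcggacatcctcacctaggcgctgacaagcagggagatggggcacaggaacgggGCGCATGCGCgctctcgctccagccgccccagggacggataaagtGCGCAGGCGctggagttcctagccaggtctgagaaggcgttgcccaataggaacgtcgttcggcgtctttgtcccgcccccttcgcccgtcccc
Atp5g1, chr11:96075671-96075881, minus strand: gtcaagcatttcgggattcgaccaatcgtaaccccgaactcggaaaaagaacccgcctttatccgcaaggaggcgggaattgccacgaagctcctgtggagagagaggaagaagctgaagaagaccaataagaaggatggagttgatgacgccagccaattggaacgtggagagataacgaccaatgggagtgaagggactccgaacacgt
The search covered both strands of the 250 bases before each start for the letters GCGCANGCG (NRF1, an activator of respiratory genes), CCGGAAGT (GABPA), ATGGCGGC (YY1), CAGCTG (an E-box) and TATAAA. The NRF1 letters occurred in 23.1% of the 39 member promoters and in 5.16% of all 32851 promoters in the RefSeq table. Members holding them were Sdha, Sdhd, Cycs, Cox6a1, Atp5c1, Atp5g2, Atp5h, Atp5k and Atp5l. In Cox6a1 they began 162 bases before the start, where both strands match, and again at 117. The GABPA letters occurred in 7.69% of member promoters (Uqcr11, Uqcrh and Atp5h) against 2.88% of all. The E-box letters were in 5.13% of member promoters against 13% of all, with the Cox8b match beginning 19 bases before the start. The TATA letters were in 5.13% against 12.4%, and the YY1 letters in 0 member promoters against 1.03% of all. None of the 5 searches found a match in the sequences of Cox7a1, Cox7a2 or Atp5g1. Matches of different motifs did not overlap, and a match is a string of letters, not a measured binding site.

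Among the 43 tested members, no subunit passed the test, while 39 of 43 (90.7%) had a negative log2 fold change, PG below GC, against 50.3% of all 9124 genes tested and 51.3% of those with a mean of at least 20 CPM. Their median log2 fold change was -0.20, within a range of -0.51 to 0.41, and the median over all genes was 0.00. With p-values from the quasi-likelihood test of edgeR adjusted by Benjamini-Hochberg, 0 of 43 members were called at 0.05, where 0.581% of all genes were called and 0.329% called lower. Before adjustment 11 members (25.6%) were lower at an edgeR p under 0.05, against 5.62% of all genes, and 1 was higher, against 4.82%. The 3 PG values lay below the 3 GC values in 9 members (20.9%), against 8.26% of all genes, and above them in 1 (2.33%), against 8.06%. These members are abundant. Among the 3868 tested genes with a mean of at least 20 CPM, 8.97% were lower at that unadjusted p and 11.2% had PG wholly below GC.

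DESeq2 called 3 members lower after adjustment, Atp5g1 (adjusted p 0.00824), Atp5k (0.0378) and Cyc1 (0.0396), where it called 0.778% of all genes lower. Limma-voom called Atp5g1 alone (adjusted p 0.0257), where it called 0.537% of all genes lower. In the authors' deposited table the lowest false discovery rate among the members was 0.541, for Atp5g1.

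**Figure D1:**
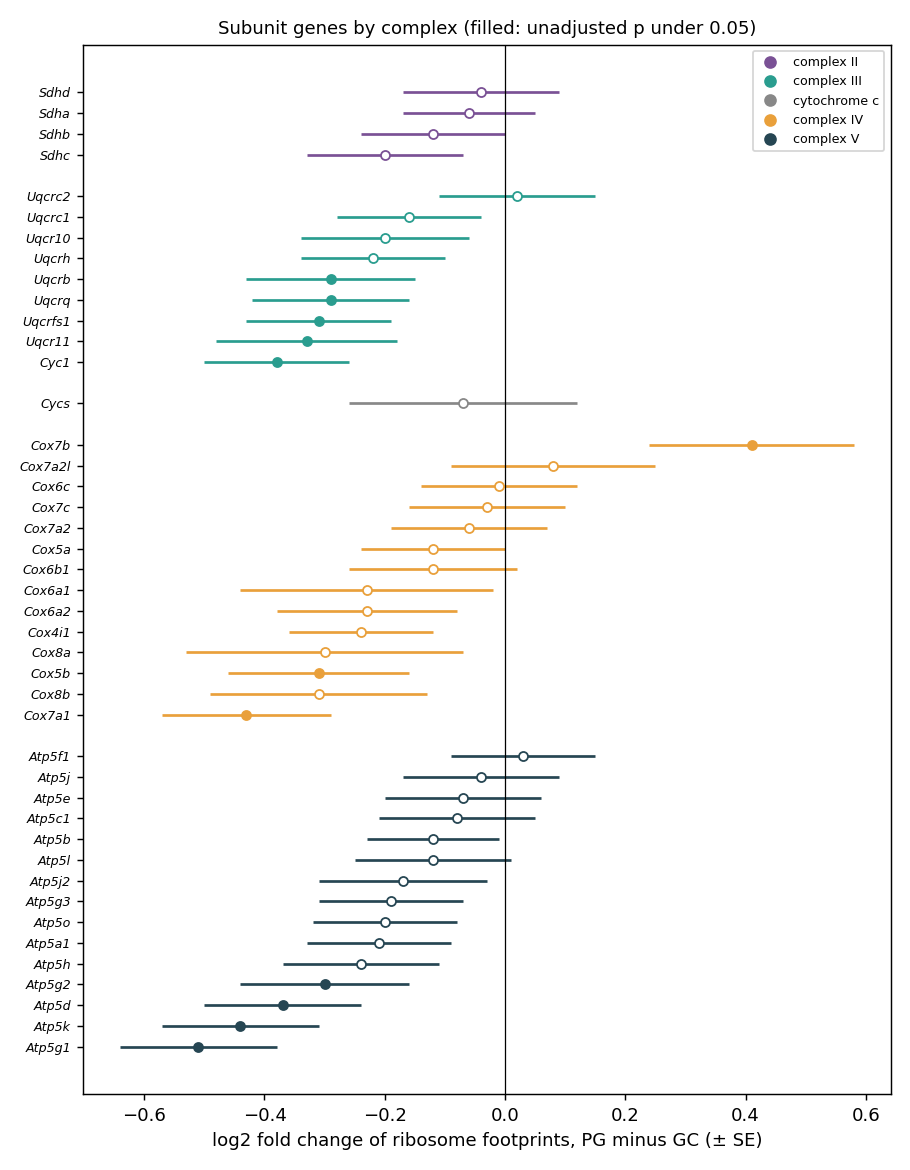
Log2 fold change of PG over GC (x axis) for each of the 43 tested members, coloured by complex; points are estimates, bars are standard errors (edgeR, 3 libraries per group) and filled points have an unadjusted p under 0.05. The values run from -0.51 (Atp5g1) to 0.41 (Cox7b), and 39 of 43 lie below 0.

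The differences were larger in some libraries than in others. Relative to each gene's mean over the 6 libraries, the median of the members stood at 0.15, 0.16 and 0.03 on the log2 scale in GC replicates 1, 2 and 3, and at -0.18, -0.15 and 0.06 in PG replicates 1, 2 and 3. The same median over all genes was 0.02 in each library. PG replicate 3 lay with the ground libraries in this measure. A member's lowest value fell in PG replicate 1 for 24 members, in PG replicate 2 for 12 and in PG replicate 3 for 2, and its highest in GC replicate 1 for 15 and GC replicate 2 for 19. Without PG replicate 3, 39 of 43 members were still negative, the median was -0.27, and edgeR called Atp5g1 (adjusted p 0.0442) and Cox7a1 (0.0328) lower, where it called 0.408% of all genes lower. In that fit 17 members (39.5%) were lower at an edgeR p under 0.05 before adjustment, against 5.32% of all genes, and PG lay wholly below GC in 58.1% of members against 13.6% of all genes.

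**Figure D2:**
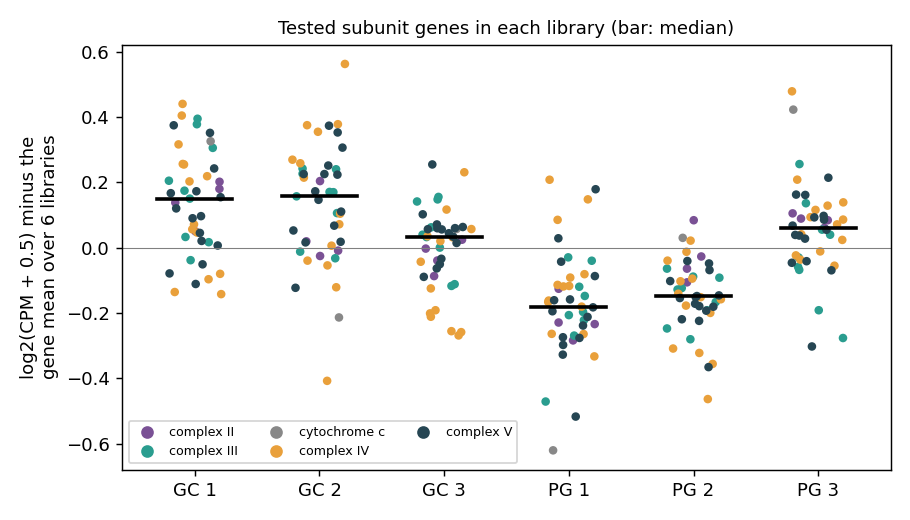
Log2(CPM + 0.5) of each tested member minus its mean over the 6 libraries (y axis) in each library (x axis), coloured by complex, with a black bar at the median. The medians of PG replicates 1 and 2 are -0.18 and -0.15, and that of PG replicate 3 is 0.06, above that of GC replicate 3 at 0.03.

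The summed markers of several cell types also lay lower in PG with no overlap. Macrophage markers summed to 138 to 178 CPM in GC and 96.0 to 113 in PG, with 5 of 6 tested and all 5 negative. Fibroblast markers summed to 565 to 633 CPM in GC and 536 to 547 in PG, and endothelial markers to 572 to 625 and 495 to 551. In each of these 2 lists 4 of 6 markers were negative and 2 positive. The median log2 fold change was -0.25 for fibroblast and -0.03 for endothelial markers, and 0 of either list were called in edgeR. Kidney markers summed to 38.9 to 46.2 CPM in GC and 1.90 to 16.8 in PG, and 1 of the 3 tested, Kap, fell (edgeR adjusted p 0.00374). The sums of liver, erythroid and atrial markers overlapped. Of the atrial markers 3 of 4 were negative (median log2 fold change -0.36), and of the erythroid markers 4 of 5 (median -0.39). Before adjustment 50.0% and 60.0% of these were lower at an edgeR p under 0.05, against 5.62% of all genes, and 0 of either list were called. GC replicate 2 alone set the liver sum apart, at 121 CPM against 16.3 and 14.2 in the other GC libraries, and 1 liver marker, Alb, fell in edgeR (adjusted p 0.034). Smooth muscle and pericyte sums overlapped too, and of their 6 markers 4 were positive, with a median log2 fold change of 0.04. Acta2 fell (edgeR adjusted p 0.0323), while Rgs5 was on the other side at 0.43 ± 0.13 (edgeR adjusted p 0.162). Markers of ventricular cardiomyocytes, cells packed with mitochondria, summed to 43904 to 49445 CPM in GC and 35247 to 42108 in PG without overlap, and 1 of the 8, the cardiac actin Actc1, fell (log2 fold change -0.76 ± 0.13, edgeR adjusted p 0.00476), from 11696 ± 1147 to 6887 ± 1411 CPM (SD, n = 3). The median log2 fold change of those 8 was -0.11, and Pln was on the other side at 0.37 ± 0.12 with PG wholly above GC (edgeR adjusted p 0.236). The part of any of these in the members' values was not tested. In whole hearts, fewer cells of a type and less RNA per cell cannot be told apart.

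Complex II showed the smallest differences. All 4 subunits had negative log2 fold changes, between -0.20 and -0.04 with a median of -0.09, and none reached an unadjusted p under 0.05 in edgeR or had separate groups. Without PG replicate 3 the median was -0.16. In that fit PG lay wholly below GC in 3 of the 4 (75.0%), against 13.6% of all genes. Before adjustment 1 (25.0%) was lower at an edgeR p under 0.05, against 5.32% of all genes. Sdha, the flavoprotein that oxidises succinate and the complex's most abundant subunit in reads, stood at 1194, 1169 and 1173 CPM in GC replicates 1 to 3 and at 1057, 1132 and 1203 in PG. The highest value was that of PG replicate 3, so the groups overlapped, and the log2 fold change was -0.06 ± 0.11. Sdhc, the large membrane anchor, stood at 449, 470 and 397 CPM in the GC libraries against 335, 379 and 434 in PG. It had the smallest p of the complex (log2 fold change -0.20 ± 0.13, edgeR adjusted p 0.631), with PG replicate 3 inside the GC range. The iron-sulfur subunit Sdhb and the small anchor Sdhd had log2 fold changes of -0.12 ± 0.12 and -0.04 ± 0.13. Every read of these 4 genes fitted a single place.

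Complex III had the lowest median of the complexes over all 6 libraries, -0.29, and 8 of its 9 subunits were negative. Without PG replicate 3 complexes III and V both had a median of -0.27. In that fit 44.4% and 53.3% of their subunits were lower at an edgeR p under 0.05 before adjustment, against 5.32% of all genes. Over all 6 libraries PG lay wholly below GC in 5 of the 9 complex III subunits (55.6%), against 8.26% of all genes. These were the catalytic subunits Cyc1 and Uqcrfs1, the accessory subunits Uqcrb and Uqcrq, and the hinge protein gene Uqcrh. At an unadjusted p under 0.05 in edgeR 5 were lower, Cyc1, Uqcrfs1, Uqcrb, Uqcrq and Uqcr11, against 5.62% of all genes, and the lowest adjusted p was 0.214. Of the Uqcrh reads 78.1% fitted a single place, and on these it was at -0.09 ± 0.12 (edgeR unadjusted p 0.467). Of the Uqcrb reads 19.5% did, and on these it was at -0.32 ± 0.22 (edgeR unadjusted p 0.144). Cyc1 encodes cytochrome c1, which hands the electron to cytochrome c, and lies at chr15:76343523-76345934 in the files' coordinates. Its level was 394, 343 and 355 CPM in the GC libraries against 278, 299 and 263 in PG. All PG libraries were below all GC libraries, PG replicate 3 being the lowest, and the log2 fold change was -0.38 ± 0.12 (edgeR adjusted p 0.214). The Rieske iron-sulfur protein Uqcrfs1 stood at 491, 498 and 488 CPM in the GC libraries against 367, 406 and 422 in PG. The GC libraries were nearly level and the PG libraries all below them, with a log2 fold change of -0.31 ± 0.12 (edgeR adjusted p 0.344).

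The core proteins of complex III, which face the matrix and carry no redox centre, differed less. Uqcrc1, the complex's most abundant subunit in reads, stood at 944, 941 and 774 CPM in the GC libraries against 717, 800 and 869 in PG, a log2 fold change of -0.16 ± 0.12 with overlapping groups. Uqcrc2 stood at 437, 445 and 459 CPM in the GC libraries against 405, 422 and 536 in PG. Its highest value was PG replicate 3, and its log2 fold change of 0.02 ± 0.13, the only positive one of the complex, was -0.11 without that library. The remaining accessory subunits Uqcr10 and Uqcr11 had log2 fold changes of -0.20 ± 0.14 and -0.33 ± 0.15, with overlapping groups. Summed over the 9 genes, complex III reads stood at 4259, 4167 and 3813 CPM in the GC libraries against 3264, 3399 and 3804 in PG. The groups were separate by the narrow gap between GC replicate 3 and PG replicate 3.

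Cycs, the soluble carrier between complexes III and IV, stood at 129, 88.6 and 107 CPM in the GC libraries against 66.7, 105 and 138 in PG. The PG group held both the lowest and the highest library, and the log2 fold change was -0.07 ± 0.19. Of its reads 15.3% were unique, that is, fitted a single place, and on these the sign turned (0.20 ± 0.33).

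**Figure D3:**
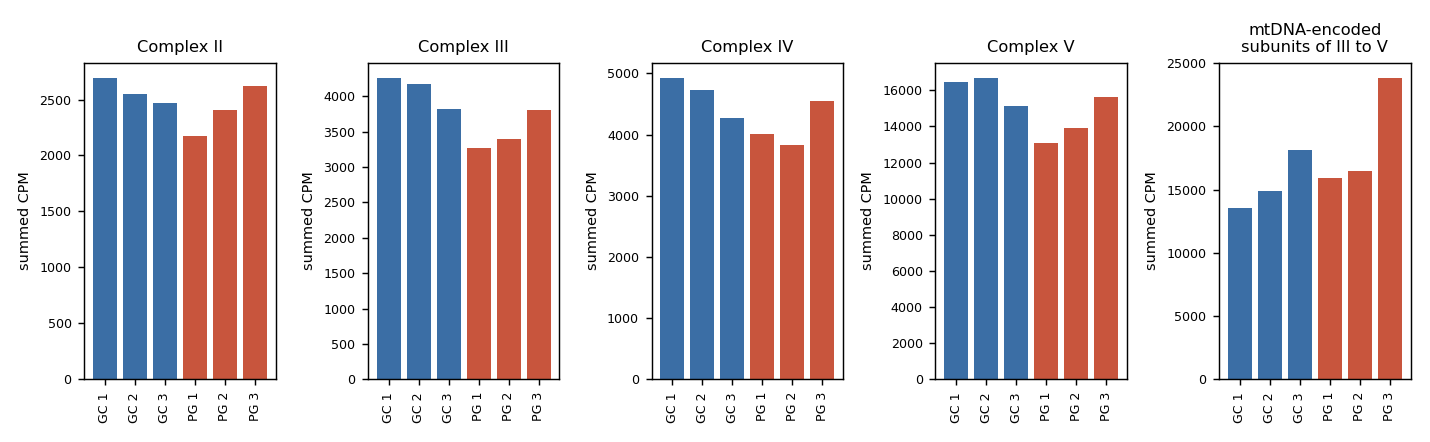
Summed CPM (y axis, from 0) of the members of each complex, and of the subunits of complexes III to V encoded by mitochondrial DNA, with 1 bar per library (GC blue, PG red). PG means lie below GC means by 6.64% for complex II, 14.5% for complex III, 11.1% for complex IV and 11.7% for complex V, and of these sums that of complex III alone has separate groups.

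Complex IV had 14 tested genes of 18, of which 12 were negative, with a median of -0.18 and the widest range of any complex, -0.43 to 0.41. Without PG replicate 3 the median was -0.24. Cox7a1 and Cox5b were lower and Cox7b higher at an unadjusted p under 0.05 in edgeR, and the lowest adjusted p was 0.225. Cox4i1, the main isoform of subunit 4 and the complex's most abundant member in reads, stood at 956, 842 and 819 CPM in the GC libraries against 716, 718 and 781 in PG. All PG libraries were lower, with a log2 fold change of -0.24 ± 0.12 (edgeR adjusted p 0.481). It was the only complex IV gene with PG wholly below GC (7.14% of those tested, against 8.26% of all genes). Of its reads 12.1% were unique, on which the log2 fold change was -0.24 ± 0.15. Cox4i2, the isoform known from lung and low oxygen, had 10, 8 and 5 reads in GC and 7, 6 and 6 in PG, too few to test. The testis isoforms were near or at 0, with 0 reads of Cox7b2 and Cox8c in every library and 8 reads of Cox6b2, all in PG.

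Cox7b went the other way. Its level was 68.4, 54.4 and 66.3 CPM in the GC libraries against 80.2, 71.7 and 101 in PG, a log2 fold change of 0.41 ± 0.17 (edgeR adjusted p 0.375). All PG libraries lay above all GC libraries, with PG replicate 3 the highest. Without that library the log2 fold change was 0.27 ± 0.17 and the unadjusted p 0.139 (edgeR). It was the only tested member of any complex with that order, and 93.7% of its reads were unique. The subunit 5 genes Cox5a and Cox5b, both nuclear subunits around the catalytic core, had log2 fold changes of -0.12 ± 0.12 and -0.31 ± 0.15. Of the Cox5b reads 8.56% were unique, and on these it was at -0.14 ± 0.31, with an unadjusted p of 0.644 (edgeR). Cox6b1 (-0.12 ± 0.14), Cox6c (-0.01 ± 0.13) and Cox7c (-0.03 ± 0.13) lay close to 0, though Cox7c was at 0.34 ± 0.32 on the 3.95% of its reads that were unique. Cox7a2l, a relative of subunit 7a that helps join complexes III and IV into supercomplexes, had a log2 fold change of 0.08 ± 0.17.

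The heart isoforms of subunits 6a, 7a and 8 exceeded the ubiquitous ones per kilobase in every library on all exon reads, although for subunit 6a the order turned on unique reads summed over the libraries. Cox7a1 stood at 590, 642 and 506 CPM in the GC libraries against 392, 358 and 540 in PG. PG replicates 1 and 2 were below every GC library, while PG replicate 3 lay inside the GC range. The log2 fold change was -0.43 ± 0.14 (edgeR adjusted p 0.225), and it was -0.62 without PG replicate 3, where edgeR gave an adjusted p of 0.0328. Every read of Cox7a1, at chr7:30184144-30186078, was unique. Its ubiquitous partner Cox7a2 stood at 202, 187 and 200 CPM in the GC libraries against 177, 187 and 202 in PG, overlapping groups with a log2 fold change of -0.06 ± 0.13.

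Per kilobase of exon, Cox7a1 exceeded Cox7a2 5.14, 6.04 and 4.46 times in GC and 3.92, 3.39 and 4.72 times in PG. The ratio was lower by 0.38 on the log2 scale in PG, with overlapping groups and a two-sided exact permutation p of 0.2 (0.6 after Benjamini-Hochberg adjustment over 3 pairs), where 0.1 is the smallest p that 3 against 3 allows. Without PG replicate 3 the difference was -0.51. The size of these ratios depends on dividing by the whole exon length, untranslated bases included, which is 535 bases for Cox7a1 and 944 for Cox7a2. Undivided, Cox7a1 held 7844 reads over the 6 libraries and Cox7a2 3066, a smaller ratio. The difference between the groups does not depend on the length.

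Cox6a2 stood at 751, 727 and 504 CPM in the GC libraries against 502, 525 and 664 in PG, and Cox6a1 at 42.1, 47.5 and 30.5 in GC and 33.7, 29.1 and 39.6 in PG. Both genes had a log2 fold change of -0.23, with standard errors of 0.15 and 0.21, and overlapping groups. Their ratio per kilobase was 18.3, 15.7 and 17 in GC and 15.3, 18.6 and 17.2 in PG, a difference of 0.00 in log2 (exact permutation p 1.0). Unique reads made up 2.14% of those of Cox6a2, 123 from GC and 80 from PG libraries, and on these its log2 fold change was -0.80 ± 0.34 (edgeR adjusted p 0.346) and the ratio differed by -0.62. The unique reads of Cox6a2, 203 in all, were fewer than the 576 of Cox6a1, whose exon length of 702 bases is close to the 680 of Cox6a2, so the higher level of the heart isoform rests on reads that fit several places.

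Cox8b stood at 96.6, 85.1 and 58.9 CPM in the GC libraries against 59.1, 64.4 and 69.9 in PG, with Cox8a at 32.5, 46.7 and 27.1 in GC and 27.7, 25.3 and 33.6 in PG. The groups overlapped for both genes, whose log2 fold changes were -0.31 ± 0.18 and -0.30 ± 0.23. With 1 library left out, that of Cox8b ran from -0.50 (without GC replicate 3) to -0.15 (without GC replicate 1) and that of Cox8a from -0.47 (without GC replicate 3) to -0.05 (without GC replicate 2). The ratio of Cox8b to Cox8a per kilobase was 4.48, 2.76 and 3.28 in GC and 3.22, 3.85 and 3.14 in PG, a difference of -0.02 in log2 (exact permutation p 0.9, adjusted 1.0). Heart isoforms made up 94.9%, 94.0% and 94.5% of the Cox6a pair per exon length in GC, 83.7%, 85.8% and 81.7% of the Cox7a pair, and 81.8%, 73.4% and 76.7% of the Cox8 pair. These shares too depend on exon length, which is 360 bases for Cox8b and 545 for Cox8a. Undivided, Cox8b held 1123 reads over all libraries and Cox8a 500.

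**Figure D4:**
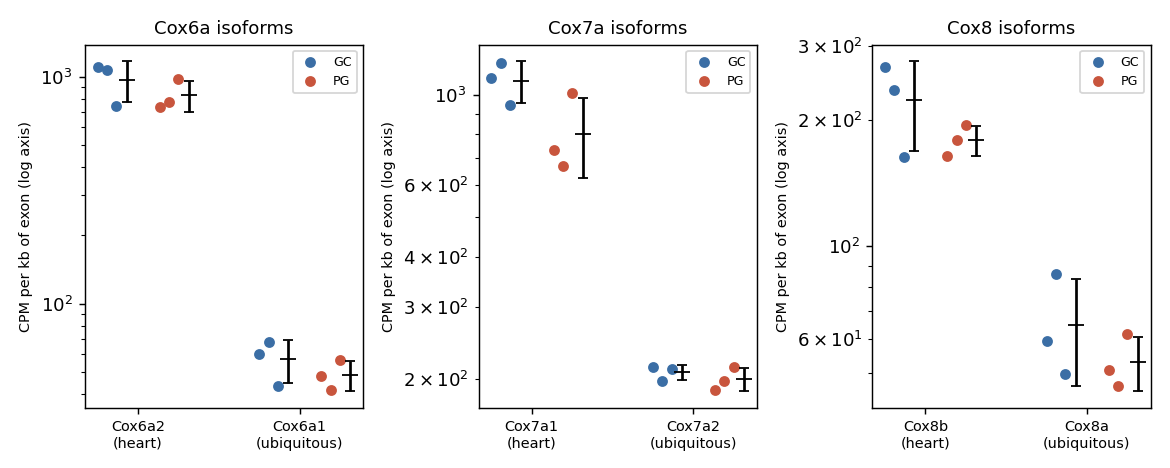
Level of the heart and ubiquitous isoforms of subunits 6a, 7a and 8 in CPM per kilobase of exon (y axis, log scale), 1 point per library (GC blue, PG red), with mean and SD beside them (n = 3). On all exon reads the heart isoform is the higher in every library, and Cox7a1 stands at 1083 ± 128 in GC and 804 ± 180 in PG while Cox7a2 stands at 208 and 200.

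Complex V carried the most reads. Its 15 genes summed to 16485, 16686 and 15120 CPM in the GC libraries against 13072, 13902 and 15648 in PG, with PG replicate 3 inside the GC range. Of the 15, 14 were negative, with a median of -0.19. Atp5g1, Atp5k, Atp5d and Atp5g2 (26.7%) were lower at an edgeR p under 0.05 before adjustment. The share was 5.62% of all genes and 8.97% of those with a mean of at least 20 CPM. The lowest adjusted p was 0.0711.

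The catalytic head, F1, makes ATP on its beta subunits. Atp5b, the beta subunit gene, stood at 5604, 5435 and 4732 CPM in the GC libraries against 4503, 4894 and 5132 in PG, overlapping groups with a log2 fold change of -0.12 ± 0.11. Atp5a1, for the alpha subunit, had the highest level per kilobase of exon of all members, 1512 ± 46.4 CPM on the ground against 1308 ± 174 in PG (SD, n = 3), and a log2 fold change of -0.21 ± 0.12. That rank depends on the whole exon length, 3135 bases for Atp5a1 and 4237 for Atp5b. Undivided, Atp5a1 held 69752 reads over the 6 libraries and Atp5b 79786. Of the rotating stalk subunits gamma, delta and epsilon, gamma (Atp5c1, -0.08 ± 0.13) and epsilon (Atp5e, -0.07 ± 0.13) lay near 0, and delta lay lower. The delta subunit gene Atp5d stood at 630, 568 and 469 CPM in the GC libraries against 387, 429 and 472 in PG, with a log2 fold change of -0.37 ± 0.13 (edgeR adjusted p 0.272). PG replicate 3 and GC replicate 3 nearly met, so the groups overlapped.

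The c ring is the rotor in the membrane through which protons flow, and Atp5g1, Atp5g2 and Atp5g3 encode the same mature peptide with different import sequences. Atp5g1, at chr11:96068852-96075670, stood at 782, 794 and 637 CPM in the GC libraries against 428, 536 and 584 in PG. Every PG library was below every GC library, with PG replicate 1 the lowest, and PG was 1.43-fold lower. The log2 fold change was -0.51 ± 0.13 (edgeR adjusted p 0.0711). With 1 library left out at a time the adjusted p ran from 0.0371 (without GC replicate 3) to 0.387 (without GC replicate 2) in edgeR. On the 19.8% of its reads that were unique the log2 fold change was -0.68 ± 0.15, past the threshold with an edgeR adjusted p of 0.00813.

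Atp5g2 stood at 140, 162 and 135 CPM in the GC libraries against 108, 112 and 136 in PG, a log2 fold change of -0.30 ± 0.14 (edgeR adjusted p 0.471) with PG replicate 3 inside the GC range. Of its reads 1.44% were unique, too few to test alone. Atp5g3 stood at 924, 1074 and 961 CPM in the GC libraries against 824, 790 and 976 in PG, a log2 fold change of -0.19 ± 0.12 with overlapping groups, and 99.9% of its reads were unique. Of the reads of the 3 genes, Atp5g1 held 42.4%, 39.1% and 36.8% in GC and 31.5%, 37.3% and 34.5% in PG. Atp5g3 held 50.1%, 52.9% and 55.4% in GC and 60.6%, 54.9% and 57.5% in PG. The Atp5g1 shares overlapped between the groups. Summed, the c ring genes stood at 1845, 2030 and 1733 CPM in the GC libraries against 1359, 1439 and 1696 in PG, with every PG library below every GC library.

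The small membrane subunits e, f and g lie where ATP synthase dimers meet. Atp5k, the subunit e gene, stood at 264, 285 and 232 CPM in the GC libraries against 189, 173 and 216 in PG. All PG libraries were below all GC libraries, and the log2 fold change was -0.44 ± 0.13 (edgeR adjusted p 0.168). Atp5j2 (subunit f) and Atp5l (subunit g) had log2 fold changes of -0.17 ± 0.14 and -0.12 ± 0.13. In the peripheral stalk, which holds the head still against the rotor, Atp5o (OSCP) stood at 825, 770 and 772 CPM in the GC libraries against 642, 664 and 754 in PG, with separate groups and a log2 fold change of -0.20 ± 0.12. The other stalk genes Atp5h (-0.24 ± 0.13), Atp5j (-0.04 ± 0.13) and Atp5f1 (0.03 ± 0.12), the only positive one of complex V, had overlapping groups.

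Reads that fit several places made up much of the counts of some members, and which other places they fit was not tested. The share of unique reads was at least 90% in 24 tested members, with 22 negative and a median log2 fold change of -0.17, and lower in 19, with 17 negative and a median of -0.20. PG lay wholly below GC in 3 of the 24 (12.5%) and in 6 of the 19 (31.6%), against 8.26% of all genes. Before adjustment 25.0% of the 24 and 26.3% of the 19 were lower at an edgeR p under 0.05, against 5.62% of all genes. Of the members with PG wholly below GC, Cyc1, Uqcrfs1 and Uqcrq had only unique reads. On unique reads 35 of 42 members were negative, against 50.2% of all genes, with a median of -0.16, and Atp5g1 alone was called in edgeR, where 0.623% of all genes were called lower. Of rows that overlap a member's gene, Itsn1 held the most reads, 674 against 11674 of Atp5o, and it is not known whether counting used the strand. Pseudogene rows with hyphenated names, such as Atp5k-ps2, held 0 reads.

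**Figure D5:**
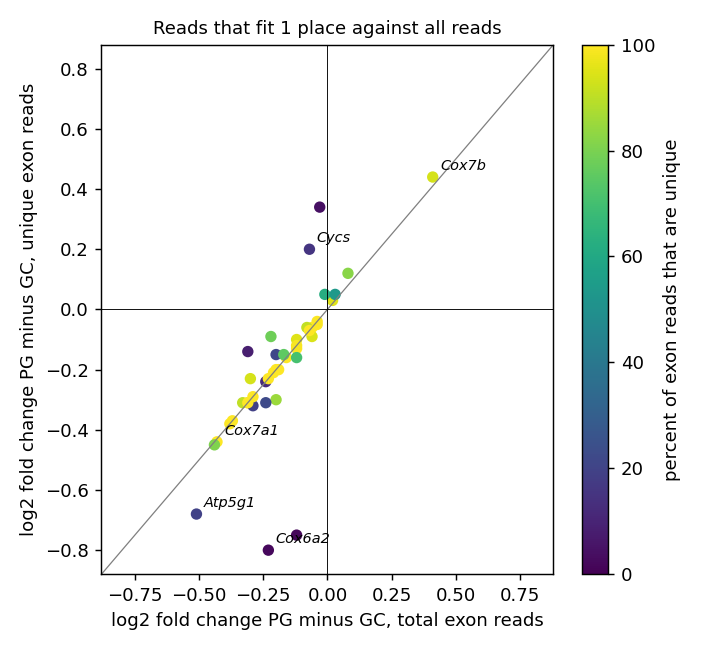
Log2 fold change of PG over GC from unique reads (y axis) against that from all exon reads (x axis), 1 point per member tested on both, coloured by the percent of unique reads; the grey line marks equal values. Atp5g1 lies at -0.51 on all reads and -0.68 on unique reads, and Atp5l (-0.12 and -0.75) and Cox6a2 (-0.23 and -0.80), with few unique reads, lie farthest from the line.

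Other genes of the pathway were set beside the members, from lists made by function. Of 36 tested nuclear genes of complex I, 33 were negative with a median of -0.22. In edgeR 0 passed after adjustment, and 15 (41.7%) were lower before it at a p under 0.05, against 25.6% of the members and 5.62% of all genes. PG lay wholly below GC in 52.8% of them, against 20.9% of the members and 8.26% of all genes. The most abundant was Ndufv1, a core subunit, with 669 ± 47.9 CPM in GC and 646 ± 66.3 in PG. Of 41 assembly factors of complexes II to V, 36 were tested and 26 were negative, with a median of -0.18 and 0 past the threshold. Before adjustment 3 (8.33%) were lower at an edgeR p under 0.05, against 5.62% of all genes. The most abundant were Lrpprc, which stabilises mitochondrial mRNA (192 ± 8.15 CPM in GC, 183 ± 23.6 in PG), and Coa5 (98.9 ± 7.11 and 102 ± 3.26). Their summed level was 1143 to 1190 CPM in GC and 1015 to 1132 in PG.

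Subunits with symbols of other forms were few. Ndufa4, now counted with complex IV, had a log2 fold change of -0.03 ± 0.12, and the ATP synthase subunit genes Usmg5 and 2010107E04Rik had -0.35 ± 0.17 and -0.10 ± 0.15. Atpif1, an inhibitor of the ATP synthase when it runs backwards, had 0.26 ± 0.15, with PG wholly above GC. None of these 4 passed in edgeR, with 0 at a p under 0.05 before adjustment. Of 7 genes for moving ADP, ATP and phosphate, 6 were tested, with 5 negative, a median of -0.13, 0 called, and 0 at an edgeR p under 0.05 before adjustment. Slc25a4, the heart's main ADP/ATP carrier, had a level of 3550 ± 527 CPM in GC against 3082 ± 525 in PG, and the outer membrane channel Vdac1 at 993 ± 56.6 and 998 ± 111 (SD, n = 3).

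The 6 subunits of complexes III to V that mitochondrial DNA encodes had the opposite sign. All 6 log2 fold changes were positive, with a median of 0.32. At an unadjusted p under 0.05 in edgeR 3 (50.0%) were higher, against 4.82% of all genes. Unique reads made up 98.1% of those of mt-Cytb and 99.4% of those of mt-Atp8. They made up 31.0% for mt-Co1, and 0.704%, 0.73% and 0.856% for mt-Co2, mt-Co3 and mt-Atp6. Only mt-Cytb, the cytochrome b of complex III, rose, from 1822 ± 298 CPM in GC to 2821 ± 569 in PG (SD, n = 3; log2 fold change 0.63 ± 0.14, edgeR adjusted p 0.0329). The most abundant, mt-Co1 and mt-Co2, had 0.19 ± 0.14 and 0.21 ± 0.16. Summed, the 6 stood at 13515, 14907 and 18157 CPM in the GC libraries against 15912, 16451 and 23841 in PG. PG replicate 3 was the highest, and the other PG libraries lay inside the GC range. How much mitochondrial material the centrifugation left in each library was not measured, so uneven removal and a difference in these genes cannot be told apart.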

How the data were processed

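The deposited table holds 49585 gene rows and 161 columns for 6 libraries. Per the file headers, the deposited values are counts of exon and gene reads, as unique and total reads, expression values that are also counts, and the authors' own test of PG against GC with p-values, false discovery rates and a signed fold change, printed only as the authors' values. The submitters' processing notes name GRCm38 and mm10, with aligner, counter and use of strand not given in the sources used here. Another 66 columns of per-library values stayed unused. Rows that overlap a member's gene were not separated by strand.

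Total exon read counts of 9124 genes entered edgeR 4.0.16 under R 4.3.3 (filterByExpr, minimum count 10; TMM; glmQLFit; glmQLFTest; group as the only term), and p-values were adjusted by Benjamini-Hochberg over all of them, with 0.05 as the threshold. CPM are TMM-scaled, standard errors come from the F statistic and the biological coefficient of variation was 19.5%. Isoform ratios used reads per exon length with 0.5 read added and an exact permutation test over libraries. DESeq2 1.42.0 and limma 3.58.1 (voom), other read classes, other scalings, no filter, the replicate block and leaving out each library were alternatives. The fit was tested on simulated data. No pair of replicates agreed within sampling noise.

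The members, gene lists, motifs and tests were chosen with earlier results of these data known. Named by rule, with every library's value where they are members, were the heart and ubiquitous isoforms, the c ring genes, Cycs, Cox4i1, Cox4i2, and in each complex the member with the highest mean CPM, the smallest p and the log2 fold change farthest from the complex's median, plus any member called by edgeR, DESeq2 or limma-voom; of the other lists, called genes and the 2 most abundant, of which 1 is not reported here and those of the marker lists are given only within the lists' sums. Uqcrfs1, Atp5d and Atp5o were given per library, and Cox5b, Cox7c, Usmg5, Atpif1 and Pln named, after their values were seen.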

Additional observations from a re-analysis of the deposited data

How the results depend on the processing

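The members' sign held in the other settings tried: 34 to 40 of the 42 to 45 members fitted were negative in each, with a median log2 fold change of -0.27 to -0.15. Scaled by library size alone, 35 of 43 were negative with a median of -0.15, while the median of all genes moved to 0.058. In edgeR the count of members called was 0 in the fit reported and 1 on unique exon reads. It was also 1 on the authors' expression values and 1 with every gene that had at least 1 read. With a library left out it was 0 to 2 (1 without GC replicate 3, 2 without PG replicate 3). Limma-voom called 1 member and DESeq2 called 3, where they called 0.537% and 0.778% of all genes lower. Atp5g1 was among them wherever any member was called, and all called were lower. With the replicate number as a block, 0 members were called and the lowest adjusted p was 0.231 (edgeR); same-numbered libraries deviated with correlations of -0.0323 to -0.00833, so the numbers do not pair them, and the block lowered the members with an unadjusted p under 0.05 from 11 to 6.

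The sign of the Cox6a ratio difference turned to -0.62 on unique reads and -0.0008 with 2 reads added to each count, and with a library left out it ran from -0.0638 to 0.0747. That of Cox8 ran from -0.1768 to 0.173 with a library left out. The log2 fold change of Uqcrc2 was -0.11 to 0.09 with a library left out, -0.11 being without PG replicate 3. That of Cycs was 0.20 on unique reads, 0.31 on the authors' expression values and -0.33 (without PG replicate 3) to 0.16 (without PG replicate 1) with a library left out, 0.06 being without GC replicate 1. The causes were not tested. Reads per codon and protein length in place of exon length were not run, since no protein sequences were used here. At this depth 4 members had too few reads to test, as had Atp5g2 on unique reads.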
